A study of Mus musculus with 12 samples.

Results

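Ttc39b, Airn, Ces2g and P2ry10 are 4 of the 9984 genes with a value in a mouse series on Erg, a DNA-binding factor of the ETS family that acts in hematopoietic stem cells. They were chosen by their values in multipotent progenitors (MPPs), where each stood higher on the arrays of Erg -/- mice than on those of Erg fl/fl mice. Their levels in MPPs were then set beside their levels in hematopoietic stem cells (HSCs). In the annotation used, each gene has 1 probe set, and no probe set that it shares with another symbol. Of 18719 probe sets on the array, 7539 are not listed there.

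The series has 12 Affymetrix arrays of RNA from sorted bone marrow cells of male C57Bl/6 mice, in 4 groups of 3. The labels give 6 generations of backcrossing for every group. HSCs (Lineage-, Sca-1+, c-Kit+, CD150+, CD48-) came from Erg +/- mice, made by crossing the floxed allele to a general Cre deleter, and from Erg +/+ mice. MPPs came from Erg -/- mice, which are Erg fl/fl mice carrying Mx1-Cre, and from Erg fl/fl mice without Cre. Mx1-Cre acts in interferon-responsive cells, blood and other. Both MPP groups received 5 injections of pIpC, an inducer of interferon, the first of them 2 weeks before the sort. The floxed segment is exon 11, which encodes the DNA-binding domain. The titles call the Erg +/- samples knock-outs, and the genotype field was followed here. The labels give pIpC for the MPP mice only. The sorting field gives a CD150- gate for the MPPs, and the source field gives them the CD150+, CD48- gate of the HSCs. Whether the 3 samples of a group are 3 animals is not stated, and the p-values rest on the spread between samples, which may be technical. Erg itself is not analysed here.

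HSCs renew themselves and give rise to MPPs, which keep the ability to form every blood lineage but lose long-term self-renewal. Many genes are switched down at this step, and factors of the ETS family bind the promoters and enhancers of many blood genes at sites built on a GGAA core. The 4 genes belong to different pathways. Ttc39b encodes a tetratricopeptide repeat protein that in mice promotes the turnover of the liver X receptors, which control cholesterol efflux. Airn is a long noncoding RNA, made from the paternal chromosome, that silences the imprinted Igf2r domain in cis. Ces2g encodes a carboxylesterase of the Ces2 family, enzymes that hydrolyse ester bonds in lipids and drugs. P2ry10 encodes a G protein-coupled receptor for lysophosphatidylserine, best known from lymphocytes.

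The stretches before the transcription starts are shown because the comparison concerns loss of an ETS factor. Each is 250 bases, 5′ to 3′ on the gene's strand, from RefSeq on build GRCm38.p6, at chr4:83324190-83324439 (minus strand) for Ttc39b, chr17:12741061-12741310 (plus) for Airn, chr8:104961468-104961717 (plus) for Ces2g and chrX:107088242-107088491 (plus) for P2ry10. Capitals mark the GGAA core or its reverse complement, TTCC.
Ttc39b promoter: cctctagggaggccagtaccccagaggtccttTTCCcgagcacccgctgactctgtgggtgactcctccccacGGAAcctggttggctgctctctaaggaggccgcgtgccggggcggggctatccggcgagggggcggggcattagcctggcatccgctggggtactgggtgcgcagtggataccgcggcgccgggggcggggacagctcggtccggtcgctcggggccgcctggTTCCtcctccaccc
Airn promoter: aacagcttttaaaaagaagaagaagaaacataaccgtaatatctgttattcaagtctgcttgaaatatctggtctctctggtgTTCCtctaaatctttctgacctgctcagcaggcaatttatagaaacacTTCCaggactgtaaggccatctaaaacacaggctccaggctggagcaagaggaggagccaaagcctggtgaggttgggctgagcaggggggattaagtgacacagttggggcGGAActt
Ces2g promoter: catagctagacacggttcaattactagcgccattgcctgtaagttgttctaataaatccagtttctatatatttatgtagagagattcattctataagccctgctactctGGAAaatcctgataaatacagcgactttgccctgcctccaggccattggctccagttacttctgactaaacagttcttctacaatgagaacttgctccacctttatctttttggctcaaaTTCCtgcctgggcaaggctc
P2ry10 promoter: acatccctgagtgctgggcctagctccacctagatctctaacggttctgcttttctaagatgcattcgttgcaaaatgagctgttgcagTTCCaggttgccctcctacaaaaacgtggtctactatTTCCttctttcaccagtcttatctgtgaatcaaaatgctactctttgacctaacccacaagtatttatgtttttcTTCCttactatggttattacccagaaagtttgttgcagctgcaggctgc

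The windows of Ttc39b, Airn and P2ry10 each held 3 GGAA cores on either strand and that of Ces2g held 2, against a median of 3 over 32851 windows of the same length. At least 1 core was present in 93.45% of all windows, so its presence did not set the 4 genes apart. The longer match AGGAAG, which contains the core, occurred once in the P2ry10 window and in 29.48% of all windows, and the match CGGAAG occurred in 0 of the 4 and in 13.59% of all. RefSeq lists a second start for P2ry10, whose window held 2 cores, 1 of them within AGGAAG. A match is a description of letters and not a binding site. The windows shared little else. The Ttc39b window was rich in CG dinucleotides, with 22, whereas those of Airn, Ces2g and P2ry10 held 2, 3 and 3, against a median of 6. The genes lie on chromosomes 4, 17, 8 and X.

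All values below are RMA values on a log2 scale, so that a difference of 1 is a 2-fold difference. The deposited arrays did not share one distribution. The interquartile range was 2.50 to 2.84 on MPP arrays and 2.83 to 2.99 on HSC arrays, which bears on every difference between the populations. The 2.84 was that of Erg fl/fl replicate 1, and the next highest MPP array, Erg -/- replicate 2, had 2.64. The spread was therefore unequal within the MPP comparison too. In bulk RNA, fewer cells of a type and less RNA per cell cannot be told apart. Arrays carry no read depth, and their number limits the precision. Tests are from limma on all 9984 genes with Benjamini-Hochberg adjustment, and "called" means an adjusted p under 0.05. Array medians lay between 5.41 and 5.54. Markers of HSCs and MPPs were then read. Their lists were chosen with earlier results of these data known, so they give no independent check of the gates. Of 20 listed HSC markers 5 had a value (Eng, Ifitm1, Mmrn1, Nupr1 and Tgm2). All 5 fell in Erg fl/fl MPPs against Erg +/+ HSCs, Eng by 3.61 on the log2 scale (limma, adjusted p = 2.13e-07). This comparison called 1.28% of genes. Of 17 listed MPP and early lymphoid markers 4 had a value. Flt3, the receptor of lymphoid-primed MPPs, rose in the same comparison, by 2.57 (limma, adjusted p = 0.000242), and Ebf1 by 1.49 (0.0114). Il12a at 0.52 and Notch1 at -0.05 were not called.

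Ttc39b was highest in HSCs. It measured 7.34, 7.32 and 6.80 in Erg +/- HSCs, against 7.96, 7.85 and 7.44 in Erg +/+ HSCs. In MPPs it measured 6.88, 7.05 and 6.99 on the Erg -/- arrays, against 5.86, 5.70 and 4.80 on the Erg fl/fl arrays. All Erg -/- values lay above all Erg fl/fl values, by at least 1.02, and all Erg +/- HSC values lay below all Erg +/+ HSC values, by at least 0.11. The order of group means was therefore Erg +/+ HSCs, Erg +/- HSCs, Erg -/- MPPs and Erg fl/fl MPPs. The Erg +/- HSC and Erg -/- MPP arrays overlapped, and the other neighbours in that order did not. The Erg -/- MPP mean, 6.97 ± 0.0855, was the most tightly replicated of the 4 groups, and the Erg fl/fl MPP mean, 5.45 ± 0.575, the least (SD, n = 3 each), with Erg fl/fl replicate 3 the low array.

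Airn was near the lower part of the array's range in control MPPs and reached or passed its HSC level in Erg -/- MPPs. It measured 6.53, 7.13 and 6.27 in Erg -/- MPPs, against 4.70, 4.48 and 4.87 in Erg fl/fl MPPs, a gap of at least 1.40 between the groups. In HSCs it measured 6.87, 7.32 and 5.71 with Erg +/- and 5.99, 5.62 and 6.63 with Erg +/+, and these groups overlapped. The means were 6.64 ± 0.439 in Erg -/- MPPs and 6.63 ± 0.832 in Erg +/- HSCs, then 6.08 ± 0.511 in Erg +/+ HSCs and 4.68 ± 0.197 in Erg fl/fl MPPs (SD, n = 3 each). The 3 upper groups overlapped one another, and the Erg fl/fl MPPs stood below all of them. Airn lies antisense across the start of Igf2r. Igf2r is not analysed here, and the labels do not say which strand the probes read.

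Ces2g was an HSC gene on these arrays with the widest range of the 4. It measured 8.68, 8.64 and 8.79 in Erg +/- HSCs, against 7.85, 7.69 and 7.35 in Erg +/+ HSCs. In MPPs it measured 5.98, 5.53 and 5.87 with Erg -/-, against 5.22, 5.07 and 4.97 with Erg fl/fl. No neighbouring groups overlapped in the order Erg +/- HSCs, Erg +/+ HSCs, Erg -/- MPPs and Erg fl/fl MPPs. The mean of Erg +/- HSCs lay at percentile 94.1 of all genes in that group, and the mean of Erg fl/fl MPPs at percentile 31.7.

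P2ry10 went against the description of the 4 as HSC-high. It measured 4.65, 4.02 and 4.14 in Erg fl/fl MPPs, which overlapped the 4.08, 4.04 and 4.67 of Erg +/+ HSCs, and the control means lay at percentiles 16.4 in these MPPs and 19.7 in these HSCs, out of all genes. P2ry10 was higher on Erg +/- than on Erg +/+ HSC arrays, a difference that was not called (limma, adjusted p = 0.0638). It was also higher in Erg -/- than in Erg fl/fl MPPs, the comparison that chose it. It measured 5.90, 6.56 and 5.56 in Erg +/- HSCs and 5.68, 5.12 and 5.31 in Erg -/- MPPs, and these groups overlapped each other and neither of the controls.

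**Figure D1:**
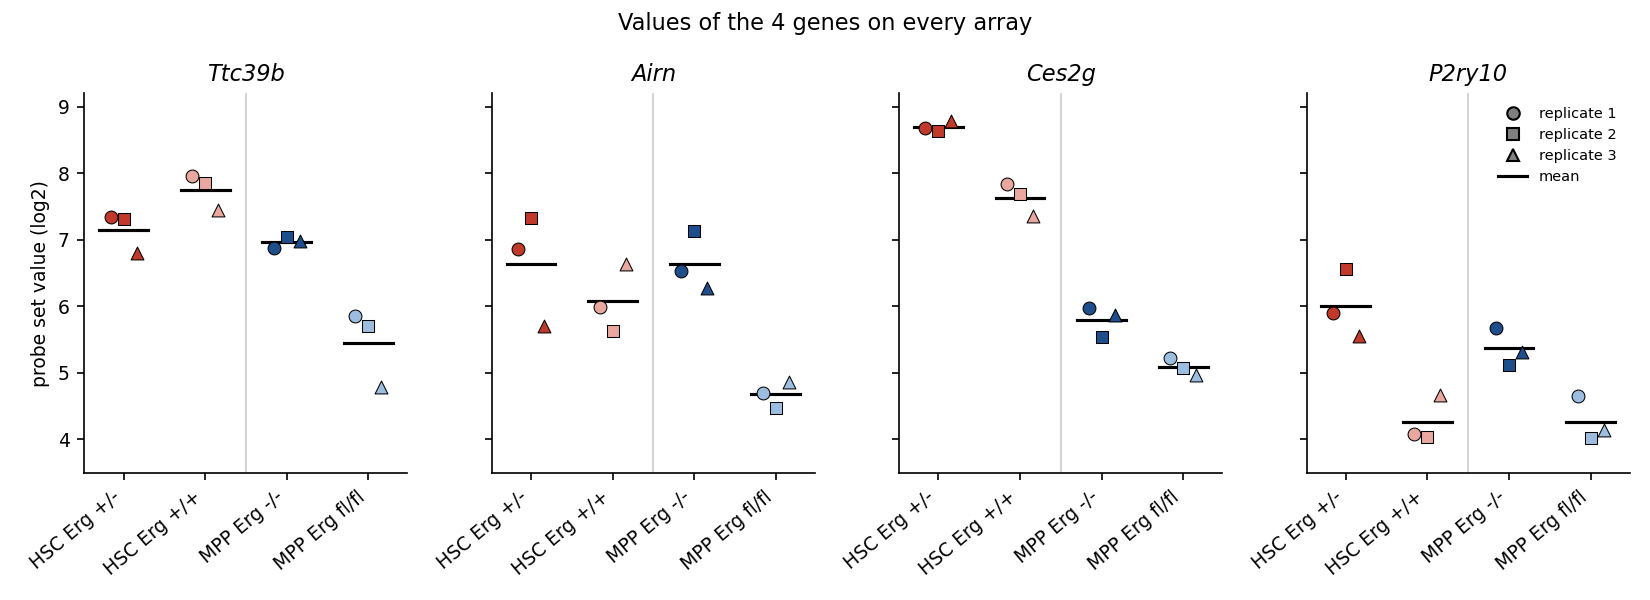
Log2 probe set values (vertical axis) of Ttc39b, Airn, Ces2g and P2ry10 on each of the 12 arrays, with Erg +/- and Erg +/+ HSCs left and Erg -/- and Erg fl/fl MPPs right of the grey line. Symbols mark replicates and bars the means of 3. The Erg -/- MPP points lie above the Erg fl/fl points in each panel, and the control groups of P2ry10 overlap, with means of 4.27 in MPPs and 4.26 in HSCs.

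The arrays of a group did not order the genes alike. Erg -/- MPP replicate 2 had the highest Ttc39b and Airn of its group and the lowest Ces2g and P2ry10. Erg +/- HSC replicate 3 had the lowest Ttc39b, Airn and P2ry10 of its group and the highest Ces2g.

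In MPPs the differences that chose the genes were 1.52 for Ttc39b (SE 0.267), 1.96 for Airn (SE 0.380), 0.71 for Ces2g (SE 0.178) and 1.10 for P2ry10 (SE 0.281), or 2.86-fold, 3.90-fold, 1.63-fold and 2.14-fold. They are given as a description, without a test. By size, Airn stood 2nd, Ttc39b 6th, P2ry10 19th and Ces2g 68th among genes higher in Erg -/- MPPs. Groups did not overlap, with Erg -/- higher, for 4 of the 4 by choice, and for 4.36% of all genes. In this comparison limma called 0.0801% of genes, 8 that fell and 0 that rose, and 121 genes were higher at an unadjusted p under 0.05. The MPP groups also differ in Mx1-Cre, which cannot be told apart from the loss of Erg. After a second quantile normalisation the MPP differences were 1.69 for Ttc39b, 2.13 for Airn, 0.81 for Ces2g and 1.18 for P2ry10.

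Against HSC controls, the level in Erg -/- MPPs was different for each gene. The difference between Erg fl/fl MPPs and Erg +/+ HSCs was -2.30 for Ttc39b, -1.40 for Airn, -2.54 for Ces2g and 0.01 for P2ry10, and it shares the Erg fl/fl arrays with the choice of the genes. These controls differ in population, in the floxed allele and, by the labels, in pIpC, which cannot be told apart here. For 3 of the 4 the Erg fl/fl MPP arrays lay wholly below the Erg +/+ HSC arrays, as for 8.54% of all genes. In Erg -/- MPPs the difference from Erg +/+ HSCs was -0.78 for Ttc39b, 0.56 for Airn, -1.84 for Ces2g and 1.11 for P2ry10. Erg -/- MPPs thus remained wholly below Erg +/+ HSCs for Ttc39b and Ces2g, as for 9.54% of all genes, stood wholly above them for P2ry10, as for 21.5%, and overlapped them for Airn.

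Expressed as a share of the distance between the controls on the log2 scale, the Erg -/- MPP mean had covered 66.1% for Ttc39b (60.4% to 69.2% with 1 array left out), 140% for Airn (120% to 174%) and 27.8% for Ces2g (24.2% to 32.9%). For P2ry10 the controls gave no distance to cover. These shares contain the Erg fl/fl mean in both terms and the differences that chose the genes, so they describe these arrays only. The distance between the controls also holds any effect of pIpC and of the floxed allele.

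**Figure D2:**
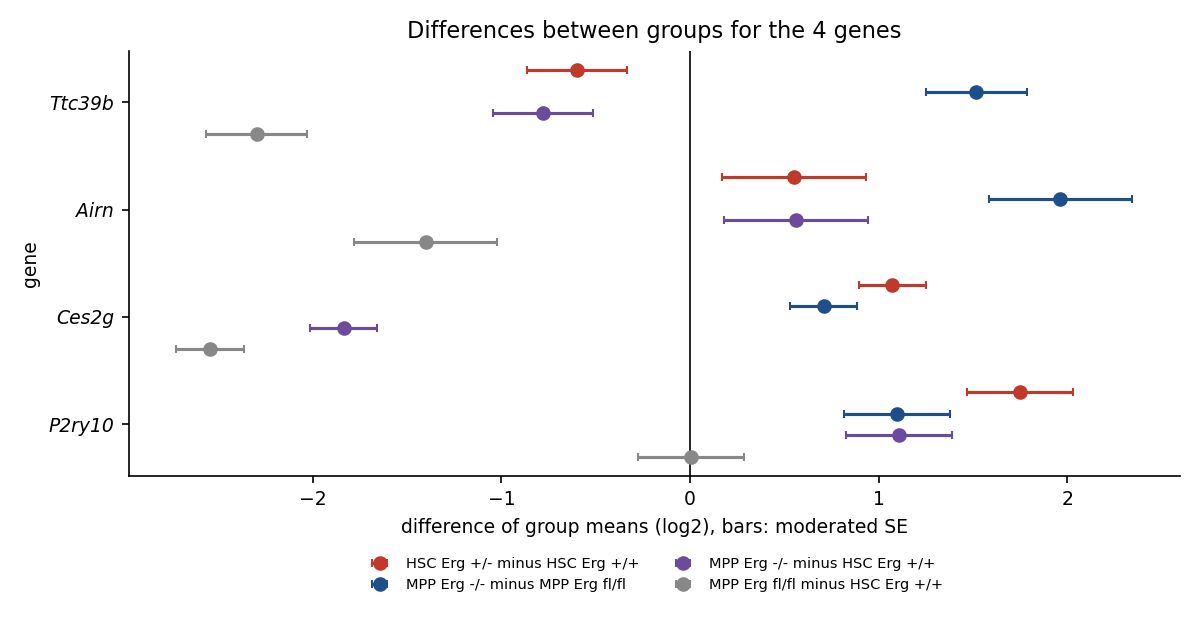
Differences of group means in log2 units (horizontal axis) with moderated standard errors for each of the 4 genes, in Erg +/- against Erg +/+ HSCs, Erg -/- against Erg fl/fl MPPs, and each MPP group against Erg +/+ HSCs. Ttc39b lies at -0.60 in HSCs and 1.52 in MPPs, and Ces2g and P2ry10 lie above 0 in both.

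The rule did not use the HSC arrays, although the genes were proposed with these results known. The comparison of Erg +/- with Erg +/+ HSCs asks whether the loss of 1 allele moves them too. None of the 4 was called. P2ry10 was 3.36-fold higher in Erg +/- HSCs, at a log2 difference of 1.75 (SE 0.281, 95% interval 1.14 to 2.36; limma, adjusted p = 0.0638). Ces2g was 2.10-fold higher, at 1.07 (SE 0.178, interval 0.68 to 1.46; limma, adjusted p = 0.0666). Airn stood at 0.55 (interval -0.27 to 1.38; limma, adjusted p = 0.909) and Ttc39b at -0.60 (interval -1.18 to -0.02; limma, adjusted p = 0.789). The intervals are for single genes, unadjusted.

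The 0 of 4 called compares with 0.02% of all genes, 2 of 9984. At an unadjusted p under 0.05 there were 3 of the 4 genes and 631 of all. Groups did not overlap for P2ry10 and Ces2g, with Erg +/- higher, as for 6.06% of all genes, nor for Ttc39b, with Erg +/- lower, as for 4.38%. P2ry10 had the 6th and Ces2g the 37th largest positive difference, with the 3rd and 5th smallest p among higher genes. The exact permutation test over the 6 HSC arrays gave p = 0.1 for each of these 3, the smallest it can give, and 0.4 for Airn (two-sided).

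How near the threshold Ces2g and P2ry10 came depended on the model. The spread of a gene is shared with the MPP arrays in this fit. With the 6 HSC arrays alone the adjusted p was 0.473 for both genes (limma). P2ry10 passed in 2 of 14 alternatives, with probe sets under the 25th percentile of mean value removed (limma, adjusted p = 0.0478) and with an intensity trend and robust moderation (0.0498). Over all its alternatives the adjusted p was 0.0478 to 0.473 for P2ry10 and 0.0615 to 0.473 for Ces2g. The Airn difference in HSCs was 0.21 without Erg +/- replicate 2, 0.32 without Erg +/+ replicate 2, 0.83 without Erg +/+ replicate 3 and 1.01 without Erg +/- replicate 3.

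Markers of other cell types differed with the genotype in the HSC sorts. The mean of 7 measured erythroid markers was 6.76 to 7.01 on Erg +/- HSC arrays, against 5.75 to 6.17 on Erg +/+ HSC arrays, with 7 of 7 differences positive and 0 called (limma), 4 of them higher at an unadjusted p under 0.05. The mean of 5 endothelial and stromal markers was 5.58 to 5.79 in Erg +/- HSCs, against 6.43 to 7.15 in Erg +/+ HSCs, with 5 of 5 negative and Sparc, a matrix protein gene, called lower (limma, adjusted p = 0.0401), a call lost in 8 of 14 alternatives. Their part in the values of P2ry10 and Ces2g was not tested. The mean levels of lymphocyte marker lists overlapped between the HSC groups. The mean of 5 T and NK cell markers was 4.91 to 5.29 in Erg +/- HSCs and 4.89 to 5.23 in Erg +/+ HSCs, and that of 7 B cell markers was 6.03 to 6.60 in Erg +/- HSCs and 6.01 to 6.52 in Erg +/+ HSCs. None of these 12 was called (limma). Of the B cell markers 1 was higher at an unadjusted p under 0.05, Bank1 at 0.85 (limma, adjusted p = 0.712), and of the T and NK cell markers 0 were.

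In MPPs, where P2ry10 was higher with Erg -/-, the T and NK cell markers averaged 4.99 to 5.43 on Erg -/- arrays, against 5.73 to 5.93 on Erg fl/fl arrays, with Nkg7 called lower (limma, adjusted p = 0.0274), a call lost in 7 of 14 alternatives. The B cell markers averaged 6.33 to 6.47 with Erg -/-, against 7.08 to 7.44 with Erg fl/fl, with Igll1 and Vpreb1, genes of the surrogate light chain, called lower (limma, adjusted p = 0.000442 and 0.00326). These lower means were carried by the called genes. Of the B cell markers Cd79a, at -0.74, was also lower at an unadjusted p under 0.05 (limma, adjusted p = 0.998), and Pax5 stood at -0.19. Positive were 3 of the 7, Bank1, a B cell scaffold protein gene, at 1.26 (limma, adjusted p = 0.366), Blnk at 0.12 and Cd24a at 0.05. Of the T and NK cell markers Il2rb stood at 0.07, Cd5 and Cd3d at -0.01 and Cd2 at -0.32. The part of lymphocytes in the P2ry10 values was not tested. Of 6 eosinophil, mast cell and basophil markers Mcpt8 fell (limma, adjusted p = 0.0029), and the mean was 5.29 to 5.61 with Erg -/-, against 5.53 to 6.11 with Erg fl/fl. That mean was carried by Mcpt8, at -3.54, since 3 of the 6 were positive (Ccr3 at 0.82, Prg2 at 0.41 and Epx at 0.39, not called) and the list median was 0.01. The erythroid markers averaged 6.48 to 7.20 with Erg -/-, against 6.07 to 6.60 with Erg fl/fl. As in HSCs, 7 of 7 differences were positive, with a list median of 0.40. Of the 7, 0 were called (limma), 1 being higher at an unadjusted p under 0.05. Their part in the values of the 4 genes was not tested.

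The remaining marker lists had 0 called in either comparison (limma). The mean of 7 macrophage and monocyte markers was 5.96 to 6.03 in Erg -/- MPPs, against 5.51 to 5.89 in Erg fl/fl MPPs, so the groups did not overlap, with 6 of 7 positive, Spic at 1.15 and 0 at an unadjusted p under 0.05. In HSCs it was 5.45 to 6.63 with Erg +/- and 5.55 to 6.05 with Erg +/+, with 1 of 7 higher at an unadjusted p under 0.05. The mean of 4 MPP and early lymphoid markers was 6.54 to 6.73 in Erg -/- MPPs, against 6.95 to 7.17 in Erg fl/fl MPPs, also without overlap. Of these 4, 2 were lower at an unadjusted p under 0.05 (Ebf1 at -1.23 and Il12a at -1.12). Flt3 went the other way, at 0.52 (limma, adjusted p = 0.998), and Notch1 stood at -0.01. In HSCs the mean of these markers was 5.43 to 5.98 with Erg +/- and 5.65 to 6.14 with Erg +/+, with 1 lower, Flt3 at -1.33 (limma, adjusted p = 0.119). The mean of 4 megakaryocyte markers was 5.21 to 5.57 in Erg -/- MPPs and 5.29 to 5.38 in Erg fl/fl MPPs, and 5.06 to 5.40 in Erg +/- HSCs and 5.32 to 5.46 in Erg +/+ HSCs, with 0 at an unadjusted p under 0.05 in either comparison. The part of these cell types in the values of the 4 genes was not tested.

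HSC markers are set here beside the 4 genes, which were chosen for being higher in Erg -/- MPPs. A contrast with them in that comparison was therefore built in by the choice. Of 20 listed HSC markers 5 had a value. Of these 5, 4 had negative differences against Erg fl/fl MPPs, among them Tgm2 at -0.02, and the list median was -0.57. Ifitm1, an interferon-inducible membrane protein gene, fell by 1.66 on the log2 scale (limma, adjusted p = 0.000442). Mmrn1, which encodes multimerin, stood at -0.79 (limma, adjusted p = 0.497), Eng, a TGF-beta co-receptor gene, at -0.57 (0.681) and Nupr1, a stress-responsive regulator, at 0.05 (0.998). The mean of the 5 was 6.23 to 6.45 on Erg -/- arrays, against 6.86 to 6.99 on Erg fl/fl arrays. In Erg +/- HSCs the list median was 0.00 and 0 of 5 were called (limma), with Nupr1 at 1.22 (limma, adjusted p = 0.0507) and 1 of 5 higher at an unadjusted p under 0.05. The part that a shift in the make-up of the sorted cells has in the 4 genes' values was not tested.

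**Figure D3:**
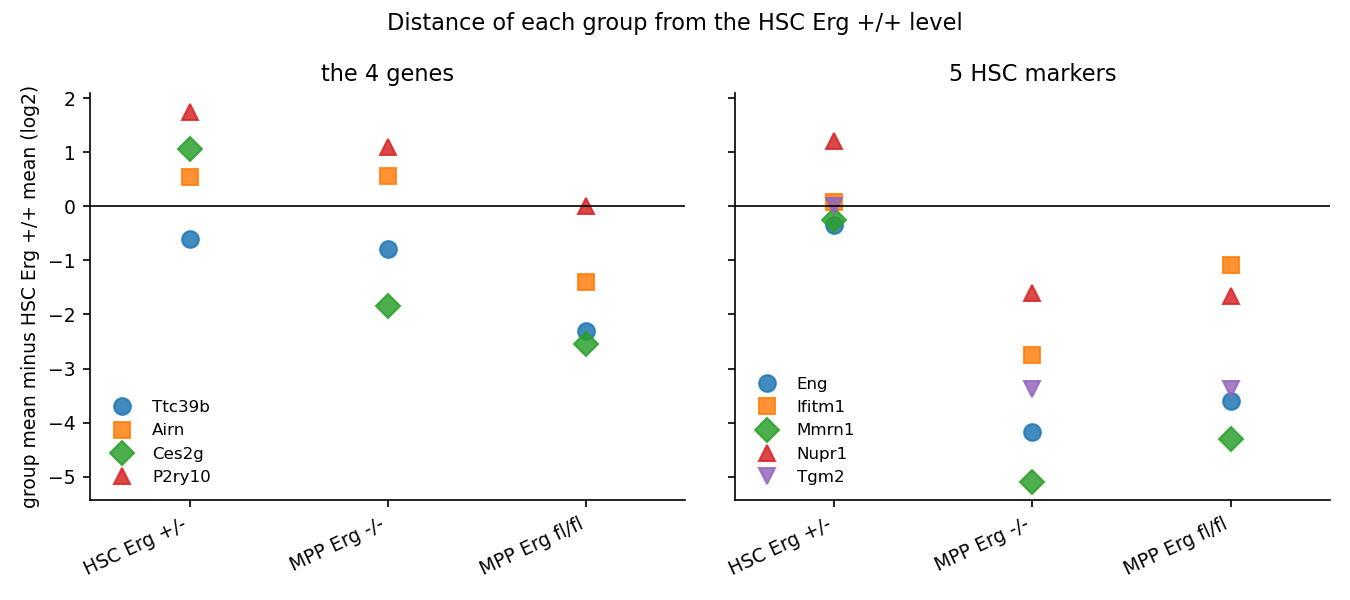
Group mean minus the Erg +/+ HSC mean in log2 units (vertical axis) for Erg +/- HSCs, Erg -/- MPPs and Erg fl/fl MPPs, with the 4 genes left and 5 HSC markers right. Ttc39b, Airn and Ces2g lie nearer to or above the zero line in Erg -/- than in Erg fl/fl MPPs. Ifitm1, Mmrn1 and Eng lie farther below it, and Tgm2 and Nupr1 lie at nearly the same level in both MPP groups. The 4 genes were chosen by their MPP difference, so their rise there was fixed by the choice.

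For each gene the pathway around it was then read from lists, leaving the gene itself out. Of the genes that act with Ttc39b, 13 of 35 TTC39-family, liver X receptor and cholesterol genes had a value. None was called in either comparison (limma), with 1 and 0 at an unadjusted p under 0.05. Their median difference was 0.05 in HSCs, beside 0.02 over all genes, and 0.10 in MPPs, where the median over all genes was -0.004. In HSCs the smallest p-values belonged to Nr1h3, the gene of liver X receptor alpha, at 0.47 (limma, adjusted p = 0.789), and Rxra, which encodes its partner, at -0.25 (0.936). In MPPs they belonged to Npc1, a cholesterol transporter of lysosomes, at -0.53, and Ttc39c, a relative of Ttc39b, at 0.61 (limma, adjusted p = 0.998 for both).

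The Igf2r domain that Airn regulates was read through its flanking genes. The imprinted members of the domain are not analysed here, and 4 of 13 listed genes had a value: Tcp1, a chaperonin subunit gene, Mrpl18, Wtap and Acat3. Their median difference was 0.10 in HSCs and -0.07 in MPPs. Their differences ran from -0.19 to 0.27 in HSCs, smallest p for Tcp1 at 0.27 and Acat3 at -0.19, and from -0.36 to 0.09 in MPPs, smallest p for Wtap at -0.36 and Tcp1 at -0.08. None was called (limma) or reached an unadjusted p under 0.05. Of 50 other imprinted genes 24 had a value and 0 were called in either comparison (limma), with 3 lower at an unadjusted p under 0.05 in HSCs and 0 in MPPs. The median was -0.01 in HSCs and 0.09 in MPPs. Meg3, the maternally expressed noncoding RNA of the Dlk1 domain, had the smallest p in HSCs, at 5.80 in Erg +/- HSCs against 7.97 in Erg +/+ HSCs (difference -2.18; limma, adjusted p = 0.522), followed by Tssc4 at -0.82. In MPPs Gatm stood at -0.44 and Inpp5f at -0.36.

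Among 33 listed carboxylesterases and lipid hydrolases other than Ces2g, 8 had a value and 0 were called in either comparison (limma), with 0 at an unadjusted p under 0.05 and medians of 0.16 in HSCs and 0.00 in MPPs. Ces2b, its measured relative in the same gene cluster, averaged 5.16 in Erg +/- HSCs and 4.91 in Erg +/+ HSCs, and 5.29 in Erg -/- MPPs and 5.43 in Erg fl/fl MPPs. It thus differed by 0.25 and -0.14 (limma, adjusted p = 0.92 and 0.998) and lay 0.52 higher in Erg fl/fl MPPs than in Erg +/+ HSCs, a comparison in which Ces2g stood at -2.54. In HSCs Abhd6, a monoacylglycerol lipase gene, stood at -0.45, and in MPPs Abhd5, a lipase cofactor gene, at -0.16 (limma, adjusted p = 0.917 and 0.998).

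Of 31 other P2Y and lysophospholipid receptors 13 had a value, and 0 were called in either comparison (limma), with 0 in HSCs and 1, lower, in MPPs at an unadjusted p under 0.05. The list medians were 0.08 in HSCs and 0.03 in MPPs. The 1 lower gene was S1pr3, a sphingosine 1-phosphate receptor gene, at -1.24 in MPPs (limma, adjusted p = 0.455), followed by Gpr65, a proton-sensing receptor gene, at -0.71. In HSCs the smallest p-values were those of Gpr174, also a lysophosphatidylserine receptor, at -0.26, and P2ry13, an ADP receptor, at 0.43 (limma, adjusted p = 0.866 and 0.885). Gpr174 averaged 2.60 in Erg +/- HSCs and 2.86 in Erg +/+ HSCs. Of 22 genes of lysophospholipid metabolism and signalling 9 had a value and 0 were called (limma), with 0 in HSCs and 1, lower, in MPPs at an unadjusted p under 0.05. Their medians were 0.16 in HSCs and -0.07 in MPPs, and they were led by Sgpl1, sphingosine phosphate lyase, at 0.57 and Lpcat2 at -0.27 in HSCs, and by Lpcat2, an acyltransferase gene, at -0.65 and Plpp6 at -0.26 in MPPs.

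Chromosomal neighbours were read next. The 3 nearest measured genes on each side of each gene, 24 in all, had differences from -0.77 to 0.60 in HSCs (median 0.04) and from -0.97 to 0.83 in MPPs (median -0.01). They lay 114 to 9165 kb from the gene, midpoint to midpoint, so some are not local. The 3 before Airn lay 2538 to 4045 kb away. Both highest differences were those of Snora20, a small RNA gene after Airn (limma, unadjusted p = 0.64 and 0.519). None of the 24 was called (limma). At an unadjusted p under 0.05 there was 1 in HSCs, Itm2a. In MPPs there were 2, D230025D16Rik at -0.86 and Taf9b at -0.97. The neighbours of P2ry10 included Lpar4, a lysophosphatidic acid receptor gene, at 0.40 in HSCs and 0.10 in MPPs, and Itm2a, a transmembrane protein gene, at -0.77 and -0.10. Zdhhc21, a palmitoyltransferase gene 443 kb before Ttc39b, stood at -0.58 in HSCs (limma, unadjusted p = 0.112), where Ttc39b stood at -0.60. In MPPs Zdhhc21 stood at -0.05 and Ttc39b at 1.52. The other neighbours of Ttc39b stood at -0.18 to 0.15 in HSCs.

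**Figure D4:**
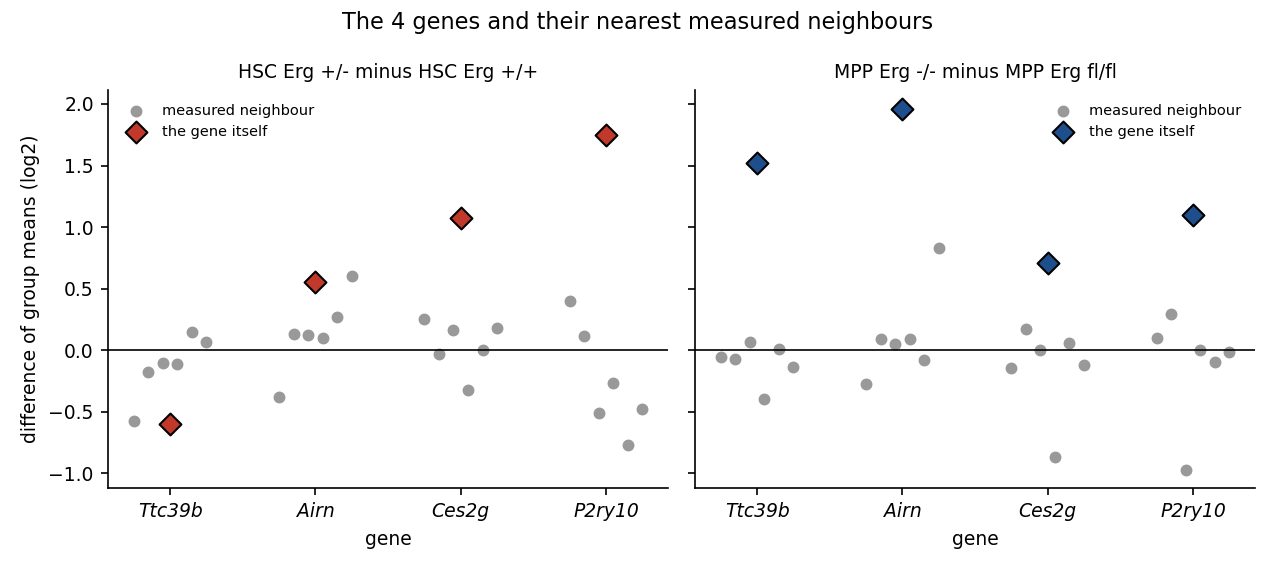
Differences of group means in log2 units (vertical axis) for each of the 4 genes (diamonds) and its 6 nearest measured neighbours on the chromosome (grey points), in Erg +/- against Erg +/+ HSCs (left) and Erg -/- against Erg fl/fl MPPs (right). The neighbours run from -0.97 to 0.83 in MPPs and lie 114 to 9165 kb from their gene. The 4 genes were chosen by this MPP difference, so their place above 0 there was fixed by the choice.

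Genes with the most similar pattern over the 12 arrays were found by the root mean square difference after each gene's mean was subtracted. For Ttc39b they were Prdx4, a peroxiredoxin gene of the endoplasmic reticulum, at 0.314, Cdc14b, a phosphatase gene, at 0.450 and Gas6, a ligand gene of TAM receptors, at 0.480, where Ttc39b itself varied by 0.895. Prdx4 averaged 8.47 in Erg +/- HSCs and 8.61 in Erg +/+ HSCs, and 8.30 in Erg -/- MPPs and 7.02 in Erg fl/fl MPPs. For Airn they were Hmox1, the heme oxygenase gene, at 0.483, Trappc1 at 0.539 and Ctse, a cathepsin gene, at 0.574, where Airn varied by 0.915.

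For Ces2g the nearest were Nupr1 at 0.413, Cracd, a regulator of actin capping, at 0.435 and Gltp, a glycolipid transfer protein gene, at 0.561, where Ces2g varied by 1.44. Cracd averaged 7.77 in Erg +/- HSCs and 6.14 in Erg +/+ HSCs, where it was called higher (limma, adjusted p = 0.00303), but 4.78 in Erg -/- MPPs and 4.68 in Erg fl/fl MPPs, so that its likeness to Ces2g lay in the HSC arrays and in the step between populations. The Cracd call is lost in at least 3 alternatives that left 0 genes called in HSCs, the replicate block, means of probe sets and only the arrays compared. For P2ry10 the nearest were Bank1, a B cell scaffold protein gene, at 0.504, Zfp300 at 0.529 and Mettl1, a tRNA methyltransferase gene, at 0.538, where P2ry10 varied by 0.809. Bank1 averaged 6.20 in Erg +/- HSCs and 5.35 in Erg +/+ HSCs, and 6.15 in Erg -/- MPPs and 4.90 in Erg fl/fl MPPs. The 3 nearest genes were different for each of the 4. Distances are over arrays that share groups and normalisation, and carry no test.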

How the data were processed

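RNA of sorted HSCs and MPPs was measured on 12 arrays. Per the labels' protocols, 20 ng of total RNA was amplified and 2.5 µg of cDNA was labelled. Values as deposited by the authors are log2 and run from 0.939 to 13.4. RMA and affy are the tools listed, with no version, in the submitters' processing notes. Joint normalisation of all 12 arrays is not stated.

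Of 18719 probe sets 10657 have 1 gene symbol, 523 several and 7539 are not listed in the annotation used. A gene was represented by its probe set of highest mean, which left 9984 genes. Of these, 9933 were matched to RefSeq by gene ID and 51 were not.

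One limma model (limma 3.58.1, R 4.3.3) had a mean per group over 12 arrays, with 8 residual and 4.35 prior degrees of freedom and no filter. Groups followed the genotype field. Tests were two-sided, with Benjamini-Hochberg adjustment over 9984 genes and a threshold of 0.05. The fit was tested on simulated data. Promoter windows, neighbours and figures used Python 3.11.15, pandas 2.3.3 and matplotlib 3.10.9.

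The members and the 15 gene lists were chosen with earlier results of these data known. The text names the 4 genes, the 3 nearest genes by pattern for each, and from each pathway list up to 3 called genes or the 2 of smallest p per comparison. From marker lists it names called genes. Further markers that were not called, from HSC and other lists, and neighbours were named after their values were seen. Not every marker list has such genes named. Alternatives were a replicate block, a filter at the 25th percentile, means of probe sets, median centring, a second quantile normalisation, robust moderation with an intensity trend, a fit of only the arrays compared, a fit of all probe sets, and leaving out single arrays.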

Additional observations from a re-analysis of the deposited data

Results flagged for a closer look

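The differences of Ttc39b had opposite signs in the populations, 1.52 in MPPs, which chose the gene and was not tested, and -0.60 in HSCs, which was not called (limma, adjusted p = 0.789). All 3 Erg -/- MPP arrays lay above all 3 Erg fl/fl MPP arrays, and all 3 Erg +/- HSC arrays lay below all 3 Erg +/+ HSC arrays. The MPP difference minus the HSC difference was 2.12 log2 units. The difference was not tested, since the MPP comparison chose the gene, and the populations also differ in allele dose, pIpC and Mx1-Cre.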

How the results depend on the processing

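The HSC differences of Ttc39b, Airn, Ces2g and P2ry10 kept their direction in all 14 alternatives each. P2ry10, at 1.75 log2 units, passed the threshold with the 25th percentile filter and with the intensity trend, and without any 1 array it stood at 1.47 to 1.97 with adjusted p from 0.102 to 0.143 (limma). Ces2g stood at 0.93 to 1.18 without 1 array (limma, adjusted p from 0.112 to 0.262). Its call and those of Airn and Ttc39b were as reported in every alternative run. Same-numbered deviations correlated at -0.0852 to 0.0862, which gives no sign of pairing by replicate number but cannot exclude it. With the replicate block the adjusted p was 0.319 for Ces2g and for P2ry10 (limma), and it left 0 genes called in HSCs, in place of 2.

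Genes called in HSCs numbered 7 with the filter, 5 with the intensity trend, 0 with means of probe sets, 0 with only the arrays compared, and 1 to 8 without 1 array: 8 without Erg +/+ replicate 2, 6 without Erg +/- replicate 2 and 1 in each other case. In MPPs 5 to 7 were called without 1 array, 5 without Erg fl/fl replicate 2 or any 1 Erg -/- array. Between Erg fl/fl MPPs and Erg +/+ HSCs 128 were called, 60 over all probe sets, 61 with only the arrays compared and 47 to 150 without 1 array, 47 and 48 without Erg fl/fl replicates 2 and 3. For comparisons across populations the block could not be fitted. The 160 alternative values of the genes' other differences moved by less than the pooled SD of the groups compared (the root mean square of their SDs), though some moves exceeded the SD of the tighter group (Ttc39b in MPPs stood at 1.19 to 1.72 without 1 array, in place of 1.52), and 5 changed sign, all of P2ry10 between the controls, where the difference is 0.01. Of 420 alternative counts of list genes called 17 changed, for HSC markers (1 in place of 0 in HSCs), endothelial and stromal markers (Sparc lost) and T and NK cell markers (Nkg7 lost). Causes were not tested.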
